A study of Mus musculus with 42 samples.

Results

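Ephrins, semaphorins and their receptors were followed in mouse muscle precursors that make or lose the transcription factor Pax7, and in satellite cells, the stem cells of adult muscle. The genes were all those in the RNA-seq count files whose symbol names an Eph receptor, an ephrin, a class 3 to 7 semaphorin, a plexin or a neuropilin, which gave 53 of 24466 genes. They were 14 Eph receptors, 8 ephrins, 20 semaphorins, 9 plexins and 2 neuropilins. RNA came from iPax7 myogenic progenitors, which are differentiated from a mouse embryonic stem cell line carrying a doxycycline (Dox) inducible Pax7 and sorted from embryoid bodies as PDGFαR+ Flk-1- cells, so that both iPax7 conditions come from 1 engineered line in which Pax7 is driven by the drug and not by its own promoter. Libraries were made from these cells in 0.75 µg/ml Dox (+Dox, n = 3), from the same cells 3 days after Dox was taken away (-Dox, n = 2), and from satellite cells sorted from mice carrying a Pax7-ZsGreen reporter (n = 3). The strain background and age of these mice, and whether replicates came from separate cultures or animals, are not given in the sources used here, so p-values measure the spread between these libraries, which may be technical. ATAC-seq peaks of open chromatin and ChIP-seq peaks of Pax7 and of histone marks were also deposited. The 10 ATAC populations were iPax7 cells in Dox and at 12 h, 24 h and 3 days without it, myotubes made from iPax7 cells and from the C2C12 myoblast line in medium with 2% horse serum, C2C12 myoblasts with no construct, with a Flag control or with Pax7-Flag in medium with 10% serum (FBS), and satellite cells. Histone marks used here were those of iPax7 cells in Dox and 3 days without it and of C2C12 myoblasts with the Flag control or Pax7-Flag.

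Eph receptors are membrane tyrosine kinases that bind ephrins on neighbouring cells, the A class mostly binding ephrins held by a lipid anchor and the B class ephrins with a membrane span, and contact can make cells separate or adhere. Semaphorins signal through plexins, and the secreted class 3 semaphorins mostly need a neuropilin as the binding partner of an A-type plexin, while Sema3e binds plexin D1 directly. Both systems were first known from growing axons and also steer endothelial cells, neural crest and migrating muscle precursors, and Sema3a from satellite cells has been tied to the growth of motor nerve endings after muscle injury.

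The 8 libraries held between 39010958 and 54674619 counts on genes, and the 53 genes took between 0.079% and 0.159% of them, with 40 to 48 genes detected in a library. Pax7 had 12759, 14129.7 and 11610.2 in +Dox, 221 and 269.5 in -Dox and 8504, 3926 and 5456 in satellite cells in normalized counts, which are counts scaled to a common library size, so the libraries matched their labels. Reads set aside because they aligned in several places made up between 7.11% and 7.60% of reads in iPax7 libraries and between 23.6% and 30.7% in satellite cells, and source and library preparation cannot be told apart there. Markers of the cell type itself, summed over 12 satellite cell genes, ran from 4033 to 5670 CPM (counts scaled to a library of 1e6 counts) in +Dox, from 1120.5 to 1196 in -Dox and from 16705 to 27098 in satellite cells. Myf5 gave most of the sum in +Dox and Sdc4 most of it in -Dox and satellite cells. Single genes went different ways. By the test used below, 10 of the 12 were higher and 1 lower in satellite cells than in +Dox, and 2 were higher and 4 lower in -Dox than in +Dox. Markers of muscle differentiation (9 genes) ran from 243 to 323 CPM in +Dox, from 42680.1 to 43708 in -Dox and from 212 to 355 in satellite cells.

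Levels of different genes were compared only after division by exon length, as normalized counts per kb. Ephrins were the most abundant family in +Dox, with summed levels of 6167, 6182 and 6046 per kb in the 3 libraries, 3438 and 3556 in -Dox, and 2383, 1547 and 2303 in satellite cells. Efna5, an A-class ephrin, made up 58.1% of the ephrin level in +Dox and 66.6% in -Dox, and was the highest of all 53 genes in both (3561 ± 755 and 2330.5 ± 219 per kb, SD), whereas Efna1 made up 64.1% of it in satellite cells. Semaphorins summed to 2293, 2443 and 1781 per kb in +Dox, 2101 and 2339.6 in -Dox and 2858, 3152 and 1969 in satellite cells, ranges that overlap. The leading semaphorin differed, being Sema3e in +Dox (38.7% of the family), Sema3d in -Dox (33.8%) and Sema6a, a membrane-bound semaphorin, in satellite cells (54.3%). Plexins were led by Plxnb2, a receptor of class 4 semaphorins, in the mean of every condition (48.3%, 47.6% and 29.4%), but in satellite cells Plxnb2 had 735, 541 and 348 per kb and Plxna2 494, 549 and 489, so that Plxna2 was the higher in 2 of 3 libraries. Eph receptors summed to 1281, 1053 and 816 per kb in +Dox, 431 and 544.5 in -Dox and 1146, 665 and 1006 in satellite cells, so both -Dox libraries lay below all 6 others. The 2 neuropilins together gave 212, 189.9 and 139 per kb in +Dox, 209 and 331 in -Dox and 1307, 1155 and 927 in satellite cells, where all 3 libraries exceeded all iPax7 libraries. In all, 6 genes were too low to be tested. Epha10 and Sema5b had no count in any library (a count of 0 allows up to 3 counts in each), and Efna3, Epha6, Epha8 and Plxnb3 had means of at most 1.83 per kb in any condition, that of Plxnb3 in satellite cells.

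**Figure D1:**
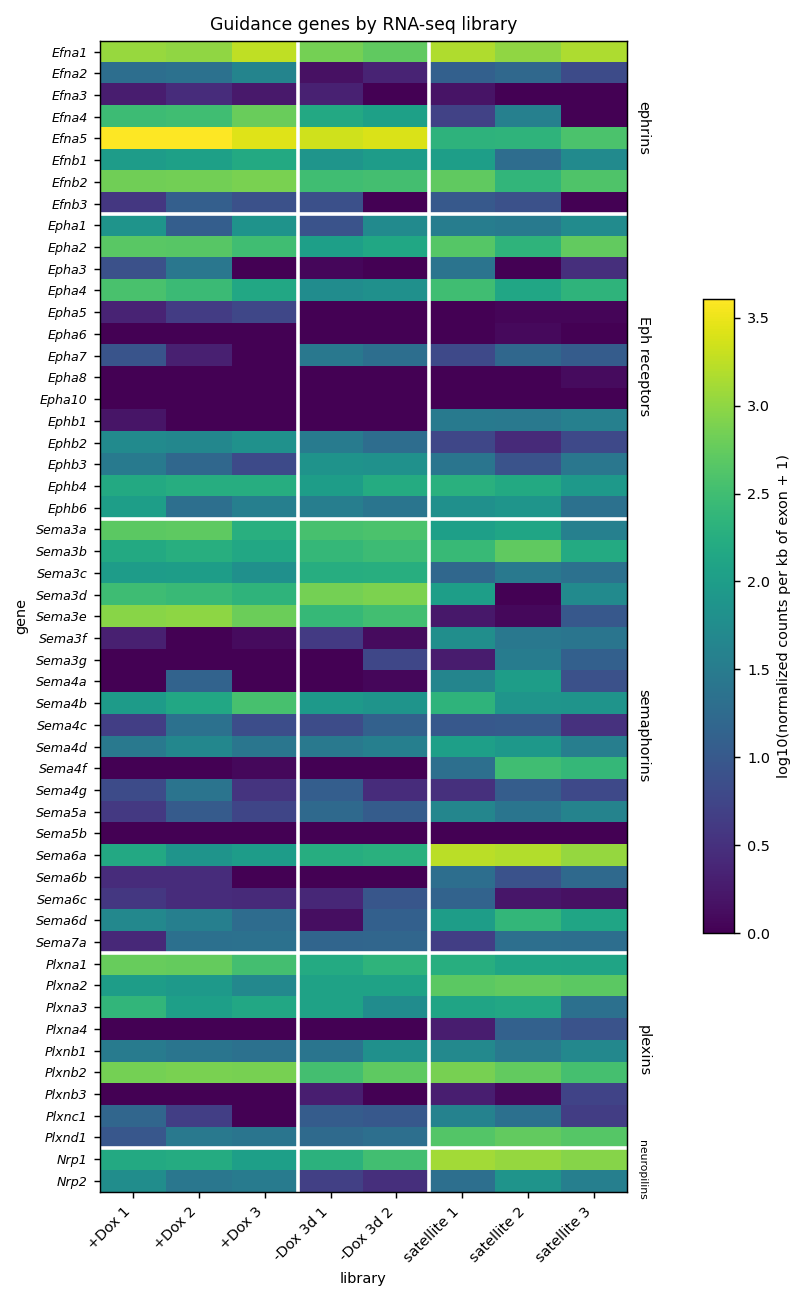
Colour shows log10(normalized counts per kb of exon + 1) of each of the 53 guidance genes (rows, by family) in each of the 8 RNA-seq libraries (columns, white lines part the conditions). Efna5 is the brightest row in the iPax7 libraries, Sema6a, Efna1 and Nrp1 are the brightest in satellite cells, and Epha10 and Sema5b are at 0 throughout.

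Dox withdrawal asks what guidance genes do when Pax7 is lost and the cells differentiate. Epha2, Epha4, Plxna1 and Nrp2, all of them receptors, fell 3 days after withdrawal, and no ephrin or semaphorin passed the test. These were 4 of the 47 genes tested (8.51%), where 3.01% of all 14836 genes tested were lower by the same rule, a change of at least 2-fold whose adjusted p in the edgeR quasi-likelihood fit was under 0.05, and where 4.63% were higher but 0 of the 47. Without the fold threshold the counts were again 4 and 0, with 451 lower and 691 higher among all 14836 genes. An unadjusted p under 0.05 was found for 16 of the 47 and for 3208 of all 14836. The median log2 fold change of the 47 was -0.69 (-0.61 with genes absent from 1 condition at their bound), and that of all genes -0.0049.

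Epha2, an A-class Eph receptor, lies on chromosome 4 from 140857155 to 140885299 on the plus strand (mouse build NCBIM37, the same as mm9, which is used throughout), and had 2249, 2185 and 1469 in +Dox, 504 and 647 in -Dox and 2126, 1028 and 2549 in satellite cells in normalized counts. Both -Dox values lay below every other library, and the log2 fold change against +Dox was -1.77 (SE 0.449, adjusted p = 0.0432). For Epha4, which binds ephrins of both classes and lies on chromosome 1 from 77363760 to 77511663 on the minus strand, the libraries held 2365, 1834 and 899.7 in +Dox, 349 and 406 in -Dox and 1996, 847 and 1393 in satellite cells. It fell by 2.17 on the log2 scale (SE 0.527, adjusted p = 0.0372), again with both -Dox libraries lowest. Plxna1, a receptor subunit for class 3 semaphorins (chromosome 6 from 89266310 to 89312607 on the minus strand), had 5224, 5135 and 3020.5 in +Dox, 1419 and 1955 in -Dox and 1648, 1168 and 1141 in satellite cells. Here satellite cells were as low as -Dox, and the withdrawal change was -1.40 (SE 0.364, adjusted p = 0.0471), with 970 bases of Plxna1 exon shared with the gene model Gm16896, so that reads of the 2 cannot be fully told apart. Nrp2, the neuropilin that pairs with plexins for Sema3f, stood on chromosome 1 from 62749859 to 62865269 on the plus strand and had 554, 249 and 293 in +Dox, 36.8 and 19.4 in -Dox and 186, 699.7 and 336 in satellite cells. The +Dox and -Dox libraries did not overlap, satellite cells lay in and around the +Dox range, and Nrp2 gave the steepest of the 4 changes at -3.70 (SE 0.843, adjusted p = 0.0283). Each of the 4 calls was lost when +Dox replicate 1, +Dox replicate 2, -Dox replicate 1 or -Dox replicate 2 was left out, the Epha4 call also without satellite cell replicate 3 and the Plxna1 call also without satellite cell replicate 2 or 3. No guidance gene was called in the first 3 of these fits and Sema6d alone without -Dox replicate 2, and the largest adjusted p over all alternatives was 0.297 for Epha2, 0.25 for Epha4, 0.355 for Plxna1 and 0.215 for Nrp2. The log2 fold changes themselves stayed between -1.96 and -1.60 for Epha2, -2.47 and -1.85 for Epha4, -1.64 and -1.19 for Plxna1 and -4.23 and -3.26 for Nrp2. Markers of muscle differentiation were far higher in -Dox, as given above, with 9 of 9 called higher, and their part in these changes was not tested. In bulk RNA, fewer cells of a type and less RNA per cell cannot be told apart.

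**Figure D2:**
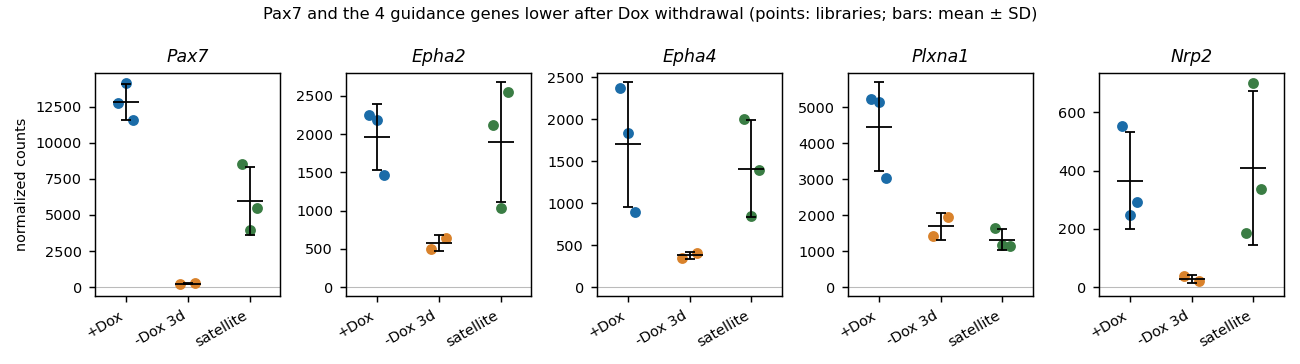
Normalized counts (vertical axis) of Pax7 and of Epha2, Epha4, Plxna1 and Nrp2 in each library of the 3 conditions (points), with the mean and SD of each condition (bars). The 2 -Dox libraries lie below the 3 +Dox libraries in every panel, and satellite cells lie near -Dox only for Plxna1.

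Among the ligands, Efna5 had 15999, 16225 and 10844 in +Dox and 8771 and 10022 in -Dox, and its log2 fold change of -0.61 (SE 0.335, adjusted p = 0.337) did not pass the test although the ranges did not overlap. Efnb2, a B-class ephrin with a membrane span, had 3150.3, 3274 and 3667 in +Dox and 1485 and 1620.0 in -Dox (log2 fold change -1.12, SE 0.37, adjusted p = 0.107), and Efna1 had 2070.2, 1851 and 3285 in +Dox and 1318 and 956 in -Dox (log2 fold change -1.08, SE 0.371, adjusted p = 0.118). All 7 ephrins tested had a negative log2 fold change, from -4.89 for Efna2 to -0.46 for Efnb1, and none passed by edgeR with all 8 libraries. DESeq2 called Efna2 and Efnb2 lower, the fit of +Dox and -Dox alone called Efna4 and Efnb2, and Efnb2 was called without satellite cell replicate 2. Of the secreted semaphorins, Sema3e had 6889, 7436 and 4793 in +Dox against 1975 and 2469 in -Dox, while Sema3d ran the other way with 2084, 1928 and 1515 in +Dox against 4939.7 and 5467 in -Dox. Neither passed (Sema3e -1.52, SE 0.899, adjusted p = 0.381 and Sema3d 1.50, SE 1.21, adjusted p = 0.551), and in a fit of the +Dox and -Dox libraries alone Sema3e was called lower and Sema3d higher. Sema3a, which repels axons, had 5038, 5204 and 1916 in +Dox and 3601 and 3902 in -Dox, a difference of -0.11 on the log2 scale and smaller than the spread within +Dox. Sema3c had 689, 714 and 453 in +Dox and 1266 and 1303 in -Dox (log2 fold change 1.05, SE 0.43, adjusted p = 0.189). Nrp1, the neuropilin bound by Sema3a, had 906, 967 and 639 in +Dox and 1214 and 1944 in -Dox (log2 fold change 0.91, SE 0.324, adjusted p = 0.13), so the values of the 2 neuropilins differed in sign, although only that of Nrp2 passed. Some low genes varied widely within a condition, such as Epha3 with 38.3, 147 and 0 in +Dox, 0.92 and 0 in -Dox and 134, 0 and 11.9 in satellite cells, and Epha5 had 12.8, 34.1 and 49.2 in +Dox but 0 in both -Dox libraries, at least 23.2-fold lower against a floor of 3 counts over the group, with an adjusted p of 0.0926.

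Satellite cells were compared with +Dox to ask how far precursors made in culture carry the guidance genes of their counterparts in muscle. Of the 47 genes tested, 8 were lower in satellite cells (17%, against 18.2% of all genes tested) and 10 were higher (21.3%, against 23.9%), so the shares were near those of all genes, and the median log2 fold change was -0.0159 against 0.174. The lower genes were the ligands Efna5, Efna4, Sema3e, Sema3a and Sema3c and the receptors Ephb2, Epha5 and Plxna1. The higher genes were the receptors Nrp1, Plxna2, Plxna4, Plxnd1 and Ephb1 and the semaphorins Sema6a, Sema5a, Sema4f, Sema3f and Sema3g.

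**Figure D3:**
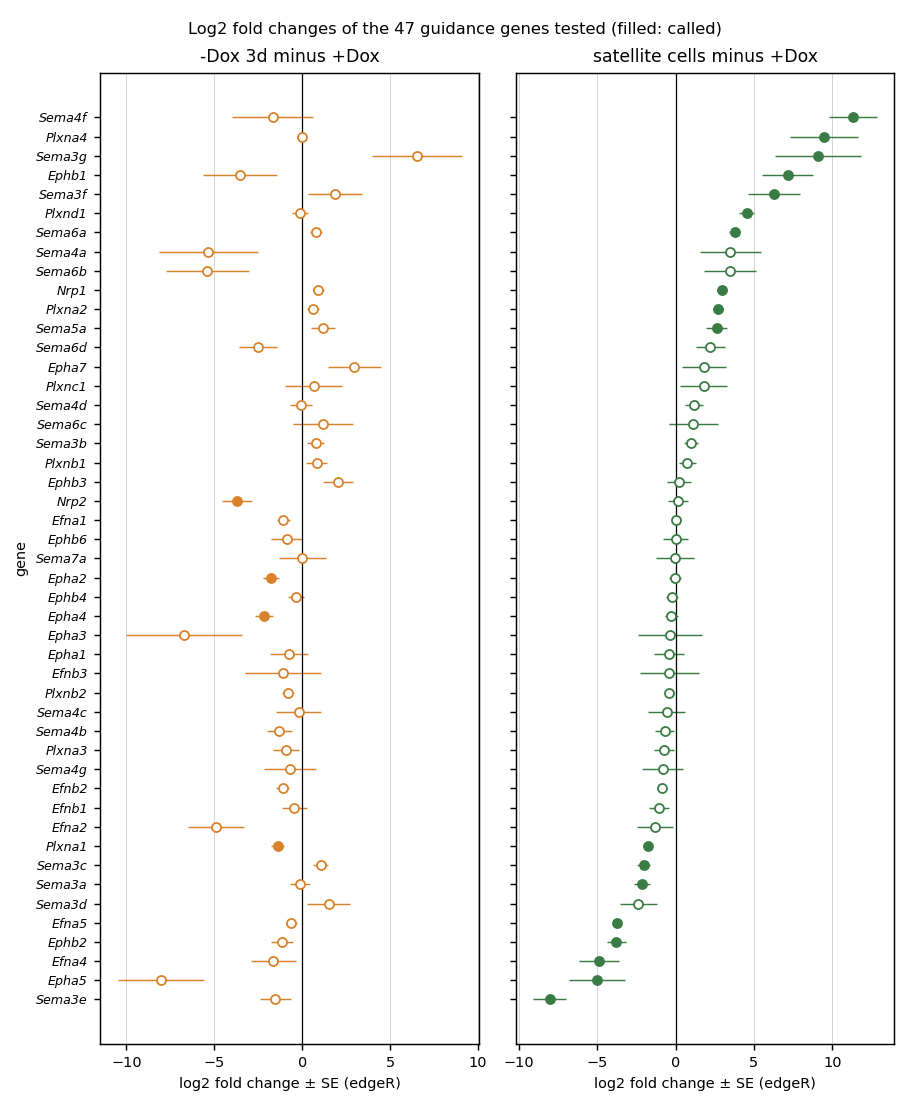
Log2 fold change with its approximate standard error (horizontal axis) of the 47 guidance genes tested, for -Dox minus +Dox on the left and satellite cells minus +Dox on the right, with filled points for genes called at an adjusted p under 0.05 and at least 2-fold. Both panels share the +Dox libraries, and 4 points are filled on the left and 18 on the right. A gene with no count in 1 condition has a fitted value that depends on the prior count.

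Efna5 had 848, 883 and 1534 in satellite cells against 15999, 16225 and 10844 in +Dox, with every satellite library under every +Dox library and a log2 fold change of -3.72 (SE 0.328, adjusted p = 4.55e-05). Efna4, another A-class ephrin, had 6.58, 57.6 and 0 in satellite cells against 466, 510.2 and 952 in +Dox (log2 fold change -4.90, SE 1.27, adjusted p = 0.0123). Efna1 did not follow them, with 2771, 1863 and 2673 in satellite cells against 2070.2, 1851 and 3285 in +Dox (log2 fold change 0.02, SE 0.32, adjusted p = 0.967). Sema3e was nearly absent from satellite cells, with 5.27, 1.34 and 65.9 in satellite cells against 6889, 7436 and 4793 in +Dox, a log2 fold change of -8.03 (SE 1.06, adjusted p = 0.000363). Plxnd1, the receptor for Sema3e, showed the opposite order, with 3104, 3883 and 3199.6 in satellite cells against 60.8, 201 and 173 in +Dox (log2 fold change 4.55, SE 0.483, adjusted p = 0.000118), and no library of the 2 groups overlapped for either gene. Sema3a had 1074, 1303 and 367 in satellite cells against 5038, 5204 and 1916 in +Dox (log2 fold change -2.15, SE 0.518, adjusted p = 0.00863), and Sema3c 108, 197 and 153 in satellite cells against 689, 714 and 453 in +Dox (log2 fold change -2.02, SE 0.407, adjusted p = 0.00352). Ephb2, a B-class receptor, had 60.6, 21.4 and 65.9 in satellite cells against 656, 567 and 832 in +Dox (log2 fold change -3.79, SE 0.604, adjusted p = 0.001), while Ephb1 of the same class had 186, 179.6 and 233 in satellite cells and 3.76, 0 and 0 in +Dox (log2 fold change 7.16, SE 1.64, adjusted p = 0.00813). Epha5 had 2 counts in all 3 satellite libraries together against 117 in +Dox, a ratio of 35 (95% exact interval 9.49 to 293, counting error only), and its call was lost in 10 of 13 alternatives, among them each of the 8 fits with 1 library left out.

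Sema6a, which binds A-type plexins, was the highest of the 53 genes per kb in satellite cells, with 15146, 13373 and 9404 in satellite cells against 1296, 639.8 and 852 in +Dox (log2 fold change 3.77, SE 0.345, adjusted p = 5.46e-05). Its receptor Plxna2 had 7460.4, 8291 and 7374 in satellite cells against 1506, 1280.3 and 721 in +Dox (log2 fold change 2.72, SE 0.312, adjusted p = 0.000174), and Nrp1 had 7603, 6388 and 5265 in satellite cells against 906, 967 and 639 in +Dox (log2 fold change 2.94, SE 0.316, adjusted p = 0.000124). In each of these 3 genes all satellite libraries lay above all +Dox libraries. Sema5a had 536, 288 and 488 in satellite cells against 35.3, 118 and 56.5 in +Dox (log2 fold change 2.64, SE 0.669, adjusted p = 0.0109) and Sema3f had 208, 93.8 and 84.4 in satellite cells against 3.76, 0 and 0.91 in +Dox (log2 fold change 6.26, SE 1.66, adjusted p = 0.0135). Sema4f had 100.0, 1609.8 and 1308 in satellite cells, 2269 counts in all, against 1 count in +Dox, a ratio of 3787 (95% exact interval 679 to 149661, counting error only), and satellite replicate 1 was far under the other two. Plxna4 had 11.8, 154 and 93.6 in satellite cells and none in +Dox, at least 108-fold higher against a floor of 3 counts over the +Dox group, and Sema3g, with 3.95, 143 and 52.8 in satellite cells, was at least 83.3-fold higher by the same floor, though its call was lost in 5 of 11 alternatives, without +Dox replicate 1, 2 or 3 or satellite cell replicate 2 or 3. Receptors that had fallen after withdrawal differed among themselves here, since Epha2 (log2 fold change -0.05, SE 0.376, adjusted p = 0.93), Epha4 (log2 fold change -0.27, SE 0.433, adjusted p = 0.645) and Nrp2 (log2 fold change 0.16, SE 0.634, adjusted p = 0.864) did not pass the test against +Dox and Plxna1 did (log2 fold change -1.76, SE 0.32, adjusted p = 0.00201).

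Markers of other cell types stood higher in the satellite libraries beside these genes. The 10 endothelial markers summed to between 421 and 610 CPM there and between 2.45 and 6.72 CPM in +Dox, all 10 were called higher, 4 of them (Kdr, Cdh5, Cldn5 and Erg) had no count in +Dox and none was at 0 in satellite cells. Kdr encodes Flk-1, and the iPax7 cells were sorted for lack of Flk-1, so its absence from +Dox is not independent of the sort. Pecam1 had 4515, 6702 and 4041 normalized counts and Cdh5 2601, 3839 and 3259 in the satellite libraries. Fibroblast markers (10 genes) summed to between 1762 and 3410 CPM in satellite cells against 119 to 269 in +Dox with 7 of 9 tested called higher, pericyte and smooth muscle markers (8 genes) to between 503 and 794 against 11.2 to 15.0 with 7 of 8 higher, Schwann and neural markers (10 genes) to between 163 and 231 against 50.4 to 63.0 with 5 of 9 higher and 1 lower, and blood markers (10 genes) to between 67.9 and 284 against 8.36 to 11.4 with 7 of 8 higher. The lower gene was Nefl, a neurofilament of neurons, which gave most of the +Dox sum of its list, with 1758, 1908 and 2149.9 normalized counts against 1.32, 2.68 and 1.32 in satellite cells. Several of the higher genes, among them Nrp1, Plxnd1 and Sema6a, are known from endothelial cells, and the part of these cells in the differences was not tested.

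**Figure D4:**
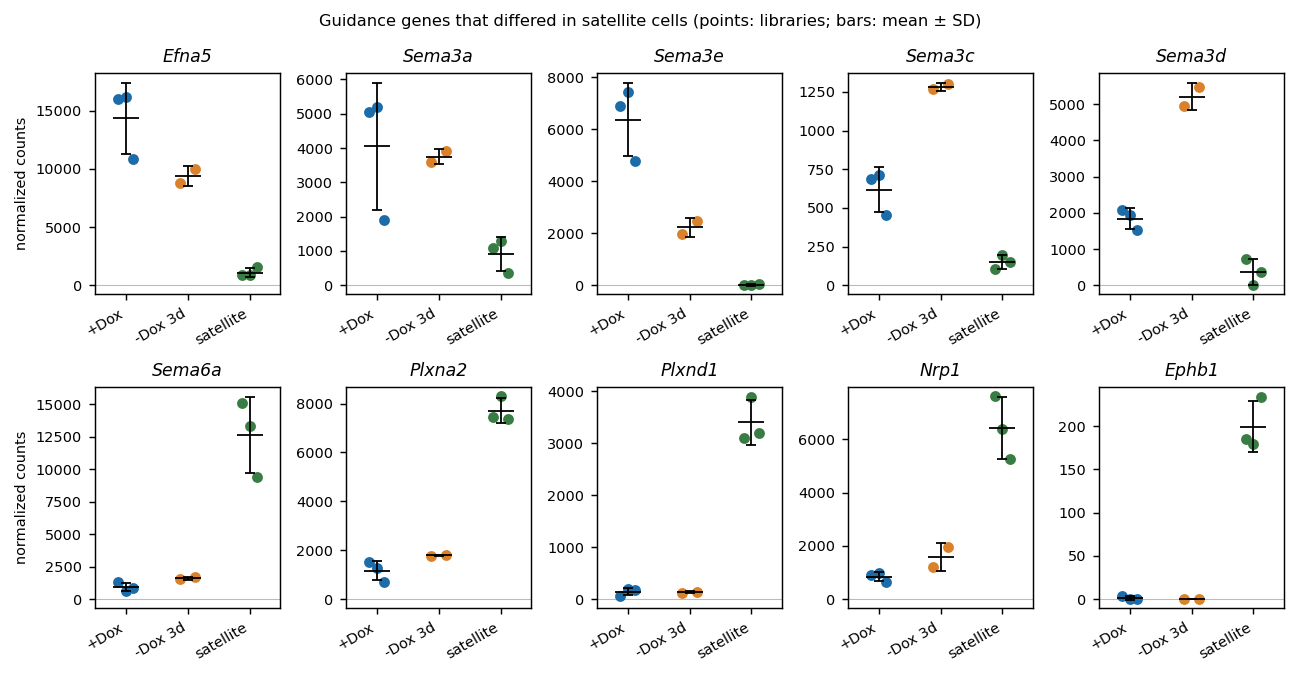
Normalized counts (vertical axis) of 10 guidance genes in each library of the 3 conditions (points), with the mean and SD of each condition (bars). Efna5 and the class 3 semaphorins in the upper row have their lowest values in satellite cells, and Sema6a, Plxna2, Plxnd1, Nrp1 and Ephb1 in the lower row have their highest values there.

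Set against -Dox, which shares its libraries with the comparisons above, satellite cells had 6 of 47 genes lower (12.8%, against 17.2% of all genes) and 13 higher (27.7%, against 20.4%), with a median log2 fold change of 0.66 against 0.231. Sema3d was the semaphorin with the highest level in -Dox, and had 717, 0 and 359 in satellite cells against 4939.7 and 5467 in -Dox (log2 fold change -3.86, SE 1.28, adjusted p = 0.0387), a call lost in 8 of 14 alternatives. Sema3e (log2 fold change -6.51, SE 1.02, adjusted p = 0.00111), Sema3c (log2 fold change -3.07, SE 0.445, adjusted p = 0.000733), Efna5 (log2 fold change -3.11, SE 0.336, adjusted p = 0.000175), Ephb2 (log2 fold change -2.64, SE 0.61, adjusted p = 0.00811) and Sema3a were the other lower genes. Epha2 (log2 fold change 1.72, SE 0.448, adjusted p = 0.0138), Epha4 (log2 fold change 1.90, SE 0.52, adjusted p = 0.0175) and Nrp2 (log2 fold change 3.85, SE 0.851, adjusted p = 0.00648) were higher in satellite cells than in -Dox, and Plxna1 did not pass (log2 fold change -0.36, SE 0.345, adjusted p = 0.436). Sema6d, a membrane-bound relative of Sema6a, had 1070.3, 2537 and 1389 in satellite cells against 3.68 and 123 in -Dox (log2 fold change 4.72, SE 1.21, adjusted p = 0.0132). Its +Dox values of 504, 374 and 186 also lay below every satellite library. That difference did not pass in the edgeR fit (log2 fold change 2.23, adjusted p = 0.0696). DESeq2 and the fit of those 2 conditions alone called it. Sema6a, Plxna2, Plxnd1 and Nrp1 were higher by 2.97, 2.10, 4.68 and 2.02 on the log2 scale, each in 3 of 3 satellite libraries. Markers of other cell types also stood higher than in -Dox. Called higher were 10 of 10 endothelial, 7 of 9 fibroblast, 6 of 8 pericyte and smooth muscle and 6 of 8 blood genes tested. Of 9 Schwann and neural genes tested, 3 were higher and 1 lower. The part of these cell types in the differences was not tested. Sema4f, Ephb1, Plxna4 and Sema6b had no count in -Dox and were at least 728-fold, 144-fold, 62.6-fold and 40.8-fold higher in satellite cells against a floor of 3 counts over the -Dox group. Efna1 completed the 13, with a log2 fold change of 1.10 (SE 0.371, adjusted p = 0.041) and a call lost in 8 of 14 alternatives, where the adjusted p reached 0.281, among them the fits without +Dox replicate 1 or 2, -Dox replicate 1 or 2 or satellite cell replicate 1 or 3. Leaving out +Dox replicate 1, 2 or 3 or satellite cell replicate 3 each ended the Sema3d call, and leaving out satellite cell replicate 2 or 3 ended that of Plxna4. Leaving out -Dox replicate 1 left 3 genes lower and 7 higher, and leaving out -Dox replicate 2 left 4 lower and 6 higher. Either of these ended the calls of Sema3a, Sema3d, Efna1, Epha2, Epha4, Ephb1, Plxna4 and Sema6b, while that of Ephb2 was lost without -Dox replicate 1 alone and that of Nrp2 without -Dox replicate 2 alone.

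The remaining genes passed in none of the 3 comparisons by edgeR with all 8 libraries. Other settings called some of them, and Sema4a was called higher in satellite cells than in -Dox with RLE scaling, with DESeq2, under both other filters, with the 2 conditions fitted alone and without any 1 of the +Dox libraries. DESeq2 also called Sema3b higher in satellite cells than in +Dox, Efna2 lower after withdrawal, and Efna2 and Epha3 higher in satellite cells than in -Dox. Leaving out satellite cell replicate 3 called Sema3b and Sema4d higher in satellite cells than in +Dox. Sema3b, Sema4b, Sema4d, Plxnb2, Plxna3, Plxnb1 and Ephb4 were expressed in every library. Plxnb2, the most abundant plexin, had 5168, 5464 and 5445 in +Dox, 2493 and 3699.7 in -Dox and 5378, 3962 and 2544 in satellite cells, and Sema4b, a class 4 semaphorin, had 506, 774 and 1936 in +Dox, 484 and 389 in -Dox and 1185, 407 and 394 in satellite cells, so that 1 +Dox library lay well above the rest. Sema4d, the ligand of B-type plexins, had 180.3, 295 and 163 in +Dox, 179 and 228 in -Dox and 683, 532 and 215 in satellite cells. Ephb4, the receptor of Efnb2 in vessels, had 716, 813 and 826 in +Dox, 459.5 and 751 in -Dox and 897, 714 and 399.6 in satellite cells, with overlapping groups. Ephb3 had 179, 94.8 and 34.6 in +Dox, 442 and 414 in -Dox and 154, 45.6 and 161 in satellite cells, both -Dox libraries being the highest (log2 fold change 2.06, SE 0.847, adjusted p = 0.194 against +Dox). Sema4a had 0, 70.3 and 0 in +Dox, 0 and 0.92 in -Dox and 228, 538 and 36.9 in satellite cells, and Epha7, Epha1, Ephb6, Efnb1, Efnb3, Efna2, Plxnc1, Sema4c, Sema4g, Sema6c and Sema7a had means of at most 410.0 normalized counts in any condition, that of Efnb1 in +Dox.

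Pax7 sites offered a readout of these genes that does not rest on RNA. The authors deposited 2455 sites from Pax7 ChIP-seq in iPax7 cells in Dox, kept where at least 2 +Dox replicates and no -Dox replicate had them. Assigning each site to the nearest annotated start gave 26 sites at 15 of the 53 genes, while 8.64% of all 20660 genes with an annotated start were nearest to a site. The 53 genes are long, with a median span of 36.9 kb against 15.9 kb for all genes and 153.6 kb for the 15, and genes nearest to a site had a median of 48.9 kb over all genes, so the nearest gene rule and gene length move together and their parts were not told apart. The 15 genes were the receptors Epha2, Epha4, Epha5, Epha6, Plxna1, Plxna2, Plxnb2, Plxnc1 and Nrp2 and the ligands Efna5, Efnb2, Sema3a, Sema3d, Sema3e and Sema6a. All 4 genes that fell after withdrawal were among the 14 of them that were tested for RNA, whereas 0 of the 33 tested genes without a nearest site fell. This split depended on the fit. Of genes without a nearest site, DESeq2 called Efna2 lower and the 2 conditions fitted alone Efna4. The replicate block called Efna4, Epha3, Ephb2 and Sema6d lower. Of genes with one, DESeq2 added Efnb2 and Epha5, and the other fits named here added Efnb2 and Sema3e. Among all genes nearest to a site 5.83% fell (87 of 1493), and among the rest 2.7% (360 of 13343). Of the 14 tested genes with a nearest site, 5 were lower in satellite cells than in +Dox (Efna5, Epha5, Plxna1, Sema3a, Sema3e) and 2 were higher (Plxna2, Sema6a). Of the 33 without one, 3 were lower and 8 higher. Over all genes, 20.1% of those nearest to a site were lower in satellite cells and 25.9% higher, against 18% and 23.7% of the rest. Counting instead every gene with a start within 100 kb of a site gave 18 of the 53, with 19.5% of all genes.

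Epha4 had the most sites, with 5 between 0.178 and 666 kb from the nearest of its annotated starts, from which all distances are counted, and Plxna2 had 4 between 7.55 and 274 kb. Epha2 had sites 1.34 and 13.3 kb downstream of a start, Plxna1 1 site 0.451 kb into the gene, and Nrp2 1 site in an intron, 76.6 kb away. Sema3e had sites 50.6 and 74.4 kb upstream, Efna5 1 site past the end of the gene and 169 kb from the nearest of its 3 annotated starts, and the sites assigned to Efnb2 lay 693 and 1167 kb away. The 201 bases around the highest +Dox ATAC summit in 1 site of each gene are shown, plus strand, 5′ to 3′, for the 4 genes that fell after withdrawal and for 3 genes with a difference in satellite cells. For each gene this is the site closest to a start whose window holds no annotated exon, and for Plxna1, where no summit fell in the site, the window is centred on the site. Capitals mark GTCACGC (letters of the paired domain motif), the homeodomain palindromes P2 and P3 (inverted TAAT repeats with spacers of 2 and 3 bases), TAATTA (the repeat with shared bases), CAGCTG (an E-box read by myogenic factors) or TGAGTCA (the AP-1 site), searched on both strands.

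Epha2, chr4:140866323-140866523: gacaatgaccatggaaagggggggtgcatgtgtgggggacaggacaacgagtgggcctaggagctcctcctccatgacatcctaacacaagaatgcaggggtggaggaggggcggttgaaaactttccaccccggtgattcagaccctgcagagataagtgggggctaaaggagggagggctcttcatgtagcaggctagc

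Epha4, chr1:77507925-77508125: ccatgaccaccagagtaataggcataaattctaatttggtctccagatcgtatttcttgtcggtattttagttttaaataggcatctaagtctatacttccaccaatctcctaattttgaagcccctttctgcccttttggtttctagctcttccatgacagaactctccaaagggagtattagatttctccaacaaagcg

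Plxna1, chr6:89312056-89312256: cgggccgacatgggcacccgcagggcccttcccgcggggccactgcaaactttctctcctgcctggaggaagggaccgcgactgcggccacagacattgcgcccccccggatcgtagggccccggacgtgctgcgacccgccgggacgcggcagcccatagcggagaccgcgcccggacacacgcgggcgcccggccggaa

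Nrp2, chr1:62826773-62826973: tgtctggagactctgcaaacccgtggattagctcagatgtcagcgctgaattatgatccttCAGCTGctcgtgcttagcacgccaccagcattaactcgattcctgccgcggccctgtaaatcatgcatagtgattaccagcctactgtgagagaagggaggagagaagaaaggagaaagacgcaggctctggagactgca

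Efna5, chr17:62787559-62787759: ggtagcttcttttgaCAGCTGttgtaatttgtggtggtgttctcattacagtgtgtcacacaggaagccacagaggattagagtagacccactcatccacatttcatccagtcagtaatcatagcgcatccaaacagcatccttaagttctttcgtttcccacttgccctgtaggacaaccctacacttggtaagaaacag

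Sema3e, chr5:13974718-13974918: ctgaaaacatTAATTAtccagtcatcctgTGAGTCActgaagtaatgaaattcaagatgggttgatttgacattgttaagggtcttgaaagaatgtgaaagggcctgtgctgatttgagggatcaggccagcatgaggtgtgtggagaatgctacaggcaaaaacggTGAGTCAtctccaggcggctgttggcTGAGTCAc

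Plxna2, chr1:196583140-196583340: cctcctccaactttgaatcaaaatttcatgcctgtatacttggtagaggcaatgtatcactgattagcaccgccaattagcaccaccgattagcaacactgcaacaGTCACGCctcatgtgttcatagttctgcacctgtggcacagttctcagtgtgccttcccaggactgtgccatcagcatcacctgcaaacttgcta

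The windows at Epha2, Epha4 and Plxna1 hold none of these letters, those at Nrp2 and Efna5 hold CAGCTG, that at Sema3e holds TAATTA and TGAGTCA, and that at Plxna2 holds GTCACGC. The last 2 motifs of the list were added after some windows had been read. Over the 25 sites of guidance genes with a summit, GTCACGC was in 3, CAGCTG in 5, TGAGTCA in 2, P2 in 1, TAATTA in 1 and P3 in 0. Over all 2275 Pax7 sites with a summit the shares were 3.16%, 24.1%, 9.58%, 1.05%, 8.09% and 1.67% in the same order, and over all 135564 +Dox ATAC summits they were 1.44%, 19.9%, 18.7%, 0.479%, 5.26% and 0.586%. A match is a description of the sequence, not a bound site.

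All 26 sites overlapped an ATAC peak in +Dox, as did 95.4% of all Pax7 sites. At 3 days after withdrawal 18 of 26 did (68.0% of all sites), and in satellite cells 17 of 26 (53.0%). In C2C12 myoblasts 12 of 26 sites overlapped a peak with the Flag control and 21 of 26 with Pax7-Flag, against 38.6% and 71.0% of all sites. The 9 sites that had a peak only with Pax7-Flag were all 4 of Plxna2 and 1 each of Efnb2, Epha4, Epha5, Plxnc1 and Sema3d. The acetylation mark H3K27Ac lay over 21 of 26 sites in +Dox and 12 in -Dox (73.2% and 37.9% of all sites), and the repressive mark H3K27me3 over 1 in each, a Plxna2 site in +Dox and the Epha5 site in -Dox (4.97% and 3.3% of all sites). The 4 genes that fell after withdrawal had different patterns at their sites. At the Epha4 start the fold enrichment of the ATAC peak was 22.7 in +Dox, 25.3 in -Dox and 19.1 in satellite cells, whereas at its intronic site 3.69 kb away it was 16.7, 4.44 and 3.52. Its site 43.8 kb away gave 10.2, 24.1 and 5.27, and its sites 601 and 666 kb away, with 11.4 and 18.3 in +Dox, had no peak in -Dox, the second of them with 14.3 in satellite cells and the first with none. Plxna1 gave 24.2, 17.8 and 9.96 at its site near the start, and Nrp2 10.6, 5.83 and 4.3 at its intronic site. Both Epha2 sites ran the other way, with 13.5 in +Dox and 19.5 in -Dox at the one nearer the start and 20.5 and 32.7 at the other, where satellite cells had 8.79 and no peak. Elsewhere, the Plxna2 site 7.55 kb upstream of one annotated start and in an intron of another transcript gave 41.6 in +Dox, 2.59 in -Dox and 12.7 in satellite cells, and the Sema3e site 50.6 kb upstream gave 61.1, 45 and 4.1. Replicates were merged before peaks were called, so these enrichments have no replicate error, and the number of peaks, between 42700 and 172103 per population, moves with depth and calling. The enrichments were also not scaled between populations. A difference between populations at 1 site can come from the site or from the scale, and these were not told apart.

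**Figure D5:**
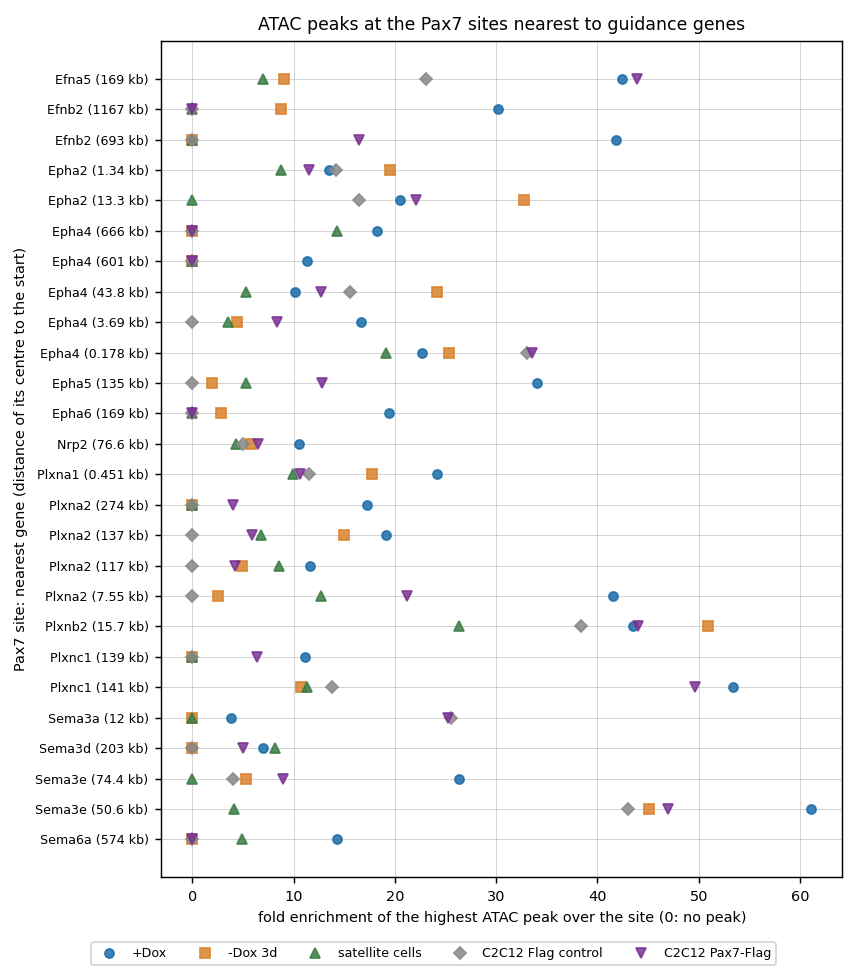
Fold enrichment (horizontal axis) of the highest ATAC peak over each of the 26 Pax7 sites nearest to a guidance gene (rows, with the distance of the site to the start), in +Dox, -Dox, satellite cells and C2C12 myoblasts with a Flag control or Pax7-Flag, where 0 means that no peak was called. All 26 sites have a +Dox peak, and 18 have one in -Dox. The enrichments were not scaled between populations.

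At the start sites themselves, an ATAC peak within 1 kb was found for 49 of the 53 genes in +Dox (92.5%, against 65.6% of all genes), 49 in -Dox (68.2% of all genes) and 42 in satellite cells (79.2%, against 60.8%). Over the 10 ATAC populations, 28 genes had a peak in every one, and Efnb3 and Epha8 had none in any. The share of all genes with a peak in every population was not counted. In single populations 46.8% to 68.2% of all genes had one. Ephb1 had a peak in all 10 populations and nearly no counts in iPax7 cells. Sema3e and Efna4, both low in satellite cells by RNA, lacked a peak there and had one in the other 9 populations. The repressive mark H3K27me3 lay within 1 kb of a start for 25 genes in +Dox (47.2%, against 23.2% of all genes) and 24 in -Dox (45.3%, against 21.2%), and 22 genes had it in both. How many of all genes had it in both was not counted. Epha4 and Sema4d carried it in -Dox and not in +Dox, and Nrp1, Epha7 and Sema7a in +Dox and not in -Dox. Of the 10 genes higher in satellite cells than in +Dox, 7 had the mark in +Dox (Ephb1, Nrp1, Plxna4, Plxnd1, Sema3f, Sema4f, Sema5a), as had 2 of the 8 lower genes and 11 of the 29 others tested. The mark was not counted over all genes split by the same calls, so whether this split is particular to these genes was not tested. Among the 10, Plxna4 and Sema3g had no count in +Dox and Sema4f had 1, so they could only be called higher. The 8 lower genes had to be expressed in +Dox. The calls and the +Dox level therefore go together, and the split cannot be read apart from that level. In C2C12 myoblasts the mark was at 13 starts with the Flag control and 23 with Pax7-Flag, against 20.3% and 22.9% of all genes, and all 13 were among the 23. The 10 added were Efna2, Epha5, Ephb2, Ephb3, Ephb6, Nrp1, Plxnd1, Sema3f, Sema3g and Sema4a. Within 5 kb of a start the control count was 21 in place of 13. The Pax7-Flag count in that wider window is not given here, so the 21 cannot be set against the 23. There is 1 merged peak list per mark and population, so none of these differences has a replicate check.

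Beside these genes, 3 further lists were taken, of effectors inside the cell, of semaphorin co-receptors at its surface, and of other guidance families with their ligands and receptors. Of 60 effectors, such as adaptors and kinases, 4 rose and 2 fell after withdrawal (6.67% and 3.33%, near the 4.63% and 3.01% of all genes), among them Fyn, a kinase of Eph and plexin signalling (log2 fold change 2.56), Cfl2, an actin severing protein of muscle (2.44), Grb2 (1.38) and Vav3, an exchange factor used by Eph receptors (-2.22). In satellite cells against +Dox 14 were higher and 9 lower (23.3% and 15%, with 23.9% and 18.2% of all genes), with Rnd1 (7.76) and Rnd3 (3.77), which bind plexins, Sh2d3c (3.59) and Abl2 (2.95) higher, and Rhod (-6.28), Gipc1 (-2.75), a partner of neuropilin 1, Acp1 (-2.19) and Rras2 (-1.46) lower. Against -Dox 14 were higher and 7 lower (23.3% and 11.7%, with 20.4% and 17.2% of all genes). Of 12 semaphorin co-receptors tested, 1 rose after withdrawal (Ncam1, 4.11) and none fell, and 9 were higher and 1 lower in satellite cells than in +Dox (75% and 8.33%), including Ncam1 (3.39), Met (1.49), Itga1, with 598, 1089.8 and 1370.3 normalized counts and none in +Dox, and Kdr, which is also an endothelial marker, with 1164, 2115 and 1669.7 and none. Kdr encodes Flk-1, the protein whose absence was used to sort the iPax7 cells. Tyrobp and Trem2, also known from macrophages, were 2 others of the 9, and against -Dox 5 co-receptors were higher and 1 lower (41.7% and 8.33%). Of 25 genes tested from the netrin, Slit, Robo, RGM and Cxcl12 families, 2 rose after withdrawal (Robo1, 2.19, and Srgap2, 1.30) and 2 fell (Neo1, -1.29, and Cxcr4, -2.82), while 12 were higher and 4 lower in satellite cells than in +Dox (48% and 16%). The higher ones included Robo4, a Robo of endothelial cells, with 1509, 1694 and 2359 normalized counts against 0, 0.74 and 0.91 in +Dox, Cxcl12 (5.76), Ackr3 (4.75) and Robo1 (3.09), and Unc5b (-1.73), a netrin receptor, was lower. Against -Dox 11 were higher and 5 lower (44% and 20%). Median log2 fold changes after withdrawal were -0.0988, 0.34 and 0 for the 3 lists (-0.0708, 0 and 0 with genes absent from 1 condition at their bound), against -0.0049 for all genes. In satellite cells against +Dox they were 0.186, 6.94 and 2.43 (0.186, 5.58 and 2.43 with bounds), against 0.174.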

How the data were processed

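RNA-seq was deposited as read counts per gene in 8 libraries, and the authors' files also hold ATAC-seq and ChIP-seq peak lists. The deposited counts were used as they stand. The submitters' processing notes name TopHat2 2.0, HTSeq 0.6 and mm9, and which settings made the RNA-seq counts, including strand use, is not given in the sources used here. The ATAC peaks came from MACS2 2.0.10 on replicates the authors had merged, with the fold enrichment (a ratio) and the −log10 q-value of each peak as deposited. The histone mark and Pax7 regions came from Qeseq and carry no score.

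Counts were tested with edgeR 4.0.16 in R 4.3.3 (TMM scaling, expression filter, quasi-likelihood test, 8 libraries in 1 fit, Benjamini-Hochberg adjustment over 14836 genes), and a gene was called at an adjusted p under 0.05 and at least 2-fold. Rows that name no gene took 9.19% to 32.4% of reads and were left out. Normalized counts are counts divided by effective library size, times its geometric mean, and SEs were derived from the F statistic. Replicates differed beyond sampling noise, and unevenly. The chi-square per degree of freedom was 47.9 between +Dox replicates 1 and 2 and 51.3 between the -Dox replicates. It was 260 to 428 for pairs with +Dox replicate 3 and for pairs of satellite cell libraries. Depth was 39010958 to 54674619 counts. Intervals and floors cover counting error only. The test was checked on simulated data with 200 genes changed. Libraries were drawn independently there, so the check does not cover the uneven likeness of the real replicates or calls lost with 1 library. Full statistics were given to up to 12 called genes per comparison whose higher condition averaged 100 normalized counts or more, by size of change, to Pax7 and to genes nearest to a Pax7 site, and from each further list to up to 4 called genes per direction averaging 1000 or more, other genes being named after their values were seen. The genes and lists were chosen with earlier results of these data known. Symbols were matched to GENCODE M1 starts for 20660 of 24466 genes, and a peak counted at a start within 1 kb. Alternatives were other scalings, DESeq2 1.42.0, other filters, 2 conditions alone, a replicate block, leaving out each library, and other peak thresholds and windows.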

Additional observations from a re-analysis of the deposited data

How the results depend on the processing

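With 2 -Dox libraries, the withdrawal comparison was the least stable. The 4 genes lower after withdrawal became 7 with DESeq2, 7 with the 2 conditions fitted alone, 20 by the ratio of means with no test, and 0 to 4 when 1 library was left out. The 0 higher genes became 1 with the 2 conditions alone, 9 by the ratio alone, and 0 to 1 without 1 library. Replicate numbers did not pair the samples, since deviations of same-numbered libraries correlated between -0.0487 and 0.0333, and the replicate block gave 10 lower and 2 higher guidance genes, and 10 lower and 14 higher genes of the 3 further lists. By the ratio alone 20 genes were higher in satellite cells than in +Dox, and 10 lower and 25 higher than in -Dox. Leaving out 1 library gave 3 to 7 lower and 6 to 14 higher against -Dox, and 7 to 8 lower and 9 to 11 higher against +Dox. The further lists after withdrawal had 4 lower and 7 higher genes, which became 7 and 12 with DESeq2, 7 and 11 with the 2 conditions alone, 22 and 21 by the ratio alone, and 1 to 5 and 4 to 9 without 1 library. Against -Dox satellite cells had 13 lower and 30 higher of these, with 22 lower by the ratio alone, and 6 to 13 lower and 13 to 31 higher without 1 library. Over all genes, withdrawal gave 687 higher and 447 lower, against 1092 and 1058 with DESeq2, 999 and 951 with the 2 conditions alone, 1223 and 1385 with the replicate block, and 363 and 125 without -Dox replicate 2. H3K27me3 in C2C12 control cells was within 5 kb of 21 starts in place of 13, and 62 of 63 peak counts moved less than 1.5 times. Of the single gene values, 807 kept their side of the threshold, 70 lost it and 20 gained it. No called value changed sign, while some that were not called did, such as Plxnd1 after withdrawal (log2 fold changes from -0.49 to 0.25). A stricter score cut on the Pax7 sites was not run, since the list used here carries no score. The cause of these shifts was not tested.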
